A study of Xenopus laevis with 6 samples.

Results

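The genes described here are 6 enzyme genes grouped under the breakdown of tyrosine, glyoxylate, glycine and cysteine, measured in organ buds of Xenopus laevis tadpoles. They were taken as every probe set whose only gene symbol in the platform annotation was hpd-like.2.L, fah.L, hao1.L, agxt.L, gldc.S or cdo1.L. That gave 7 probe sets for 6 genes, cdo1.L having 2, among 9304 probe sets with 1 symbol for 7531 genes. The samples were total RNA of liver, pancreas and stomach buds of embryos at stage 42, a swimming tadpole stage at which the dorsal and ventral pancreatic buds have fused. No treatment is named, and sex was mixed. Each organ had 2 Affymetrix arrays, from 2 isolations of tissue, and isolation 1 and isolation 2 below each supplied a liver, a pancreas and a stomach array. The buds held mesoderm as well as endoderm, and no number of embryos per isolation was stated. This frog carries a doubled genome, and the endings .L and .S tell apart its paired genes, which sit on a longer and a shorter chromosome of each pair.

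The vertebrate liver takes amino acids apart for energy, for glucose and for the removal of their nitrogen and sulfur. Tyrosine is transaminated, oxidised to homogentisate and cleaved to fumarate and acetoacetate. Glyoxylate is made in peroxisomes from glycolate and is turned into glycine by an aminotransferase, which keeps it from becoming oxalate, and glycine is split in mitochondria by the glycine cleavage system. Cysteine is oxidised to its sulfinate, from which taurine and sulfate are made.

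Values are array intensities on a linear scale, with a median of 100 on every array, and they compare organs within a probe set, not 1 gene with another. Organs were compared with limma on log2 intensities, with Benjamini-Hochberg adjustment over 15491 probe sets, and a difference with an adjusted p under 0.05 is called. A fold is the ratio of geometric means. Precision is set by having only 2 arrays of each organ. For any single gene the smallest p of an exact permutation test, 2 arrays against 2, is 0.333. Probe sets of near-identical .L and .S copies may share signal.

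Summed markers of liver, exocrine pancreas and stomach were each highest in the organ of that label. The summed intensity of 17 liver marker genes was 120038 and 94117 in liver, 4799 and 1469 in pancreas, and 2595 and 1826 in stomach. In pancreas 16 of the 17 were higher in replicate 1 than in replicate 2, with a median ratio of 5.63. The stomach markers went the other way, summing to 48 and 490 in pancreas replicates 1 and 2, and all 4 were higher in replicate 2. In stomach they summed to 12584 and 7181. The 14 exocrine pancreas markers summed to 4187 and 5373 in stomach, beside 105310 and 70358 in pancreas. Summed markers of erythrocytes (8 genes) were 38015 and 38185 in liver, 11757 to 12085 in pancreas and 8006 to 8814 in stomach, and those of leukocytes (8 genes) 1178 to 1671, 315 to 349 and 302 to 448. Muscle and connective tissue markers (7 genes) summed to 2256 and 2294 in liver, 1890 to 2783 in pancreas and 9003 to 12652 in stomach. The summed blood cell markers were thus highest in liver and the summed muscle and connective tissue markers in stomach. Single markers did not all follow. Of 8 erythrocyte genes 3 were called higher in liver than in pancreas and 5 than in stomach, and of 8 leukocyte genes 3 and 3. Over all 7531 genes these shares were 3.96% and 5.84%. The leukocyte gene lyz.L was at 3.76 and 9.59 in liver and 44 and 24.5 in stomach. Of 7 muscle and connective tissue genes 4 were called lower in liver than in stomach (5.36% over all genes). The part of these cells in the results below was not tested.

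All 6 genes were higher in liver than in stomach, and 4 of them, hpd-like.2.L, fah.L, hao1.L and agxt.L, were also higher in liver than in pancreas. Over all 7531 genes 5.84% were called higher and 5.36% lower in liver than in stomach, 3.96% higher and 3.27% lower in liver than in pancreas, and 2.6% higher in liver than in both. The other 2, gldc.S and cdo1.L, were called in neither direction between liver and pancreas. Between pancreas and stomach agxt.L, gldc.S and cdo1.L were higher in pancreas, where 4.41% of all genes were higher and 4.9% lower. All 3 were thus above stomach in both other organs, as were 1.45% of all genes. None of the 6 was called lower in any of these comparisons. The 6 genes were chosen with earlier results of these data known, so these counts describe them and do not test them as a group. By these calls hpd-like.2.L, fah.L and hao1.L were higher in liver than in both other organs and were not called between pancreas and stomach. For hpd-like.2.L pancreas minus stomach was 3 on the log2 scale, with a wide 95% interval of -0.05 to 6.04, beside 0.65 for fah.L and 0.44 for hao1.L. For agxt.L all 3 pairs were called, and gldc.S and cdo1.L were higher in both liver and pancreas than in stomach. The median log2 difference of the 6 genes was 3.3 for liver minus pancreas, 5.98 for liver minus stomach and 2.52 for pancreas minus stomach, beside -0.07, 0.04 and 0.12 over all genes. In whole buds, fewer expressing cells and less RNA per cell cannot be told apart.

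**Figure D1:**
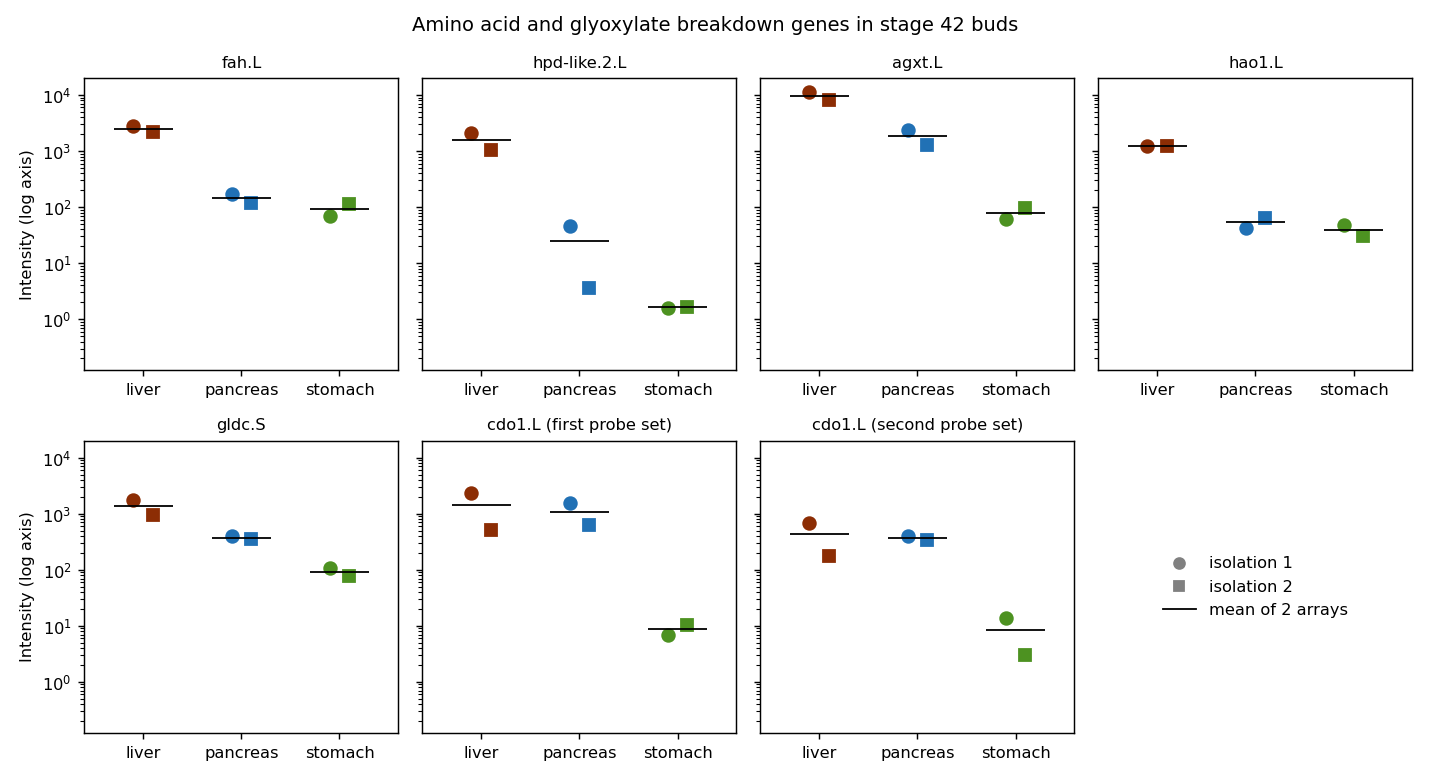
Intensity (log axis) of the 7 probe sets on each array, by organ, with circles for isolation 1, squares for isolation 2 and a line at the mean of the 2 arrays. For hpd-like.2.L, fah.L and hao1.L the liver arrays stand far above both other organs, whereas for cdo1.L the liver and pancreas arrays overlap and the stomach arrays lie lowest.

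The gene hpd-like.2.L is named for its likeness to hpd, the dioxygenase that makes homogentisate early in the tyrosine route. Whether the product of hpd-like.2.L carries out that step was not tested. The hpd-like.2.L intensity was 2142 and 1053 in liver, 46.1 and 3.67 in pancreas, and 1.6 and 1.66 in stomach. The groups did not overlap, and the pancreas arrays differed from each other by 12.6-fold. Liver exceeded pancreas 115-fold (log2 difference 6.85, SE 1.2, limma adjusted p = 0.0406) and stomach 922-fold (log2 difference 9.85, adjusted p = 0.0134). These folds stand on values close to the lowest intensities. With 16 added to each intensity they were 43.5 and 86.2. Without pancreas replicate 1 or 2 the fold over pancreas was 409 and 32.6. That call ended without liver replicate 1 or 2 (adjusted p = 0.159 and 0.107) or either stomach array (adjusted p = 0.0889 for each), and the call over stomach ended without liver replicate 1, stomach replicate 1 or stomach replicate 2 (adjusted p = 0.0674, 0.0756 and 0.0672). Between pancreas and stomach the gene was not called (7.98-fold, adjusted p = 0.2), but it was without pancreas replicate 2 (28.3-fold, adjusted p = 0.0471).

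The last step of tyrosine breakdown is carried out by fumarylacetoacetase, the product of fah, whose loss causes hereditary tyrosinaemia in people. The fah.L intensity was 2751 and 2230 in liver, 169 and 118 in pancreas, and 69.4 and 116 in stomach. Both liver arrays were far above all others, while the stomach and pancreas arrays lay close together. It averaged 2490 ± 368 in liver and 143 ± 36.1 in pancreas (SD, n = 2 each), a 17.6-fold excess (log2 difference 4.13, SE 0.346, limma adjusted p = 0.00879). Within isolations 1 and 2 the ratio was 16.3 and 18.9. Against stomach the fold was 27.6 (adjusted p = 0.00551), with ratios of 39.6 and 19.3 in isolations 1 and 2. Pancreas and stomach were not called apart (log2 difference 0.65, 95% interval -0.23 to 1.54, adjusted p = 0.306). The call over pancreas ended without liver replicate 1 or pancreas replicate 2 (adjusted p = 0.0583 and 0.0529).

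Glycolate oxidase, encoded by hao1, is a peroxisomal enzyme that makes glyoxylate. Its hao1.L probe set was at 1246 and 1222 in liver, 42.2 and 64.6 in pancreas, and 48.3 and 30.7 in stomach. The liver arrays were nearly equal and the pancreas and stomach arrays overlapped. The liver excess was 23.7-fold over pancreas (log2 difference 4.56, SE 0.332, limma adjusted p = 0.00704) and 32-fold over stomach (adjusted p = 0.00514), and pancreas minus stomach was 0.44 on the log2 scale (95% interval -0.41 to 1.28, adjusted p = 0.46). Of the 6 arrays left out in turn, liver replicate 1 was the only one whose absence ended the call over pancreas (adjusted p = 0.0506), and none ended the call over stomach.

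The aminotransferase agxt, whose loss causes primary hyperoxaluria in people, turns that glyoxylate into glycine. For agxt.L the intensities were 11468 and 8110 in liver, 2374 and 1285 in pancreas, and 61.3 and 98.4 in stomach. The 3 organs did not overlap, and pancreas stood between the others. Liver exceeded pancreas 5.52-fold (log2 difference 2.47, SE 0.421, limma adjusted p = 0.0387) and stomach 124-fold (adjusted p = 0.00488), and pancreas exceeded stomach 22.5-fold (adjusted p = 0.0115). The liver excess over pancreas was 4.83 and 6.31 within isolations 1 and 2. Its call was lost in the fit with the isolation as a block (adjusted p = 0.061) and on leaving out any 1 of the 6 arrays (adjusted p from 0.0661 to 0.153). The call over stomach was kept without each array, and that of pancreas over stomach ended without pancreas replicate 1 or stomach replicate 1 (adjusted p = 0.0698 and 0.0727). Whether the pancreas levels of agxt.L and hao1.L differ from each other relative to liver was not tested.

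The decarboxylase that opens the glycine cleavage reaction is encoded by gldc. The gldc.S intensity was 1765 and 958 in liver, 398 and 352 in pancreas, and 108 and 76.5 in stomach. Liver was highest and stomach lowest with no overlap. It was 14.3-fold higher in liver than in stomach (log2 difference 3.84, SE 0.365, limma adjusted p = 0.00786) and 4.13-fold higher in pancreas than in stomach (adjusted p = 0.0387). Liver was at 3.47 times pancreas, which missed the threshold (log2 difference 1.8, 95% interval 0.87 to 2.73, adjusted p = 0.0576) and passed it with the isolation as a block (adjusted p = 0.0385). The call over stomach in liver was kept without each array, while that in pancreas ended without either pancreas or either stomach array (adjusted p from 0.127 to 0.173).

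Cysteine dioxygenase, encoded by cdo1, commits cysteine to breakdown. The brighter cdo1.L probe set was at 2382 and 520 in liver, 1529 and 620 in pancreas, and 6.91 and 10.5 in stomach. The liver and pancreas arrays overlapped, both organs were higher in isolation 1, and both stomach arrays were under 16. Liver was 131-fold above stomach (log2 difference 7.03, SE 0.837, limma adjusted p = 0.0129) and pancreas 114-fold above it (log2 difference 6.84, adjusted p = 0.0184). With 16 added these folds were 46 and 40.2. Liver minus pancreas was 0.19 on the log2 scale, with a 95% interval of -1.94 to 2.33 that leaves room for several-fold differences either way (adjusted p = 0.917). The ratio was 1.56 in isolation 1 and 0.839 in isolation 2.

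The second cdo1.L probe set gave the same 3 calls. It was at 697 and 174 in liver, 398 and 347 in pancreas, and 13.8 and 3.02 in stomach, which is 53.9-fold higher in liver than in stomach (limma adjusted p = 0.0265) and 57.5-fold higher in pancreas than in stomach (adjusted p = 0.0316). With 16 added these were 15.5-fold and 16.3-fold. Single arrays decided these sizes. Without liver replicate 1 or 2 the first probe set was 61-fold and 280-fold, and the second 27-fold and 108-fold, above stomach in liver. Without pancreas replicate 1 or 2 the first was 72.8-fold and 179-fold above stomach in pancreas. Without stomach replicate 1 or 2 the second was 115-fold and 25.2-fold above stomach in liver and 123-fold and 26.8-fold in pancreas. The first probe set lost its liver call without stomach replicate 1 or 2 (adjusted p = 0.0756 and 0.0589), the second without any array but liver replicate 2 (adjusted p from 0.0547 to 0.0907). Both lost the pancreas call without either pancreas or either stomach array (adjusted p from 0.0583 to 0.145).

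**Figure D2:**
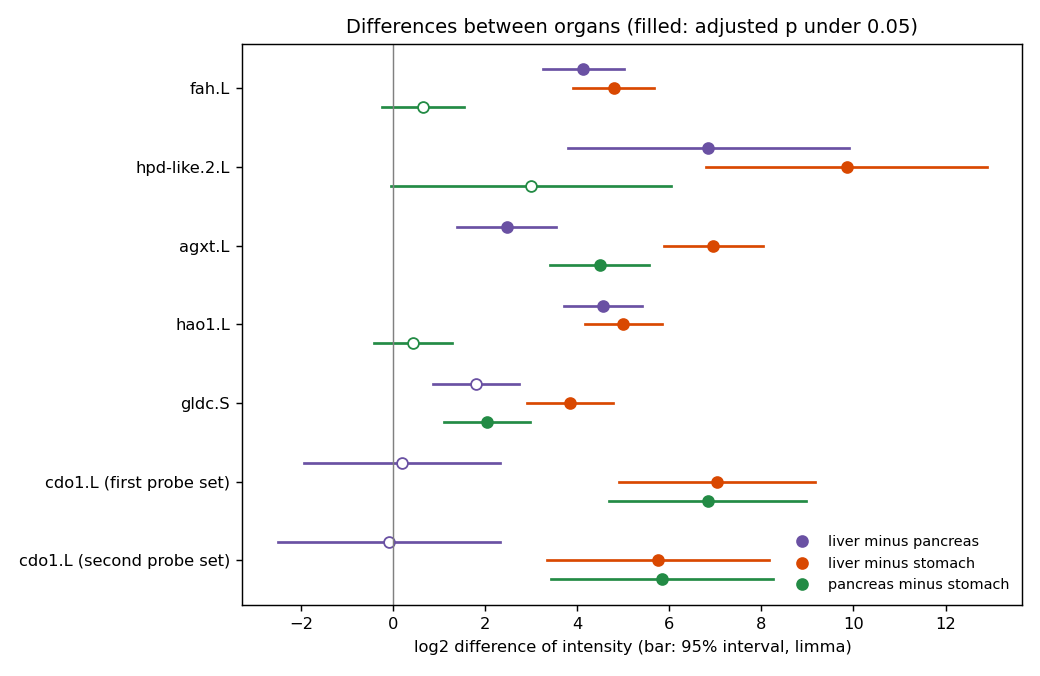
log2 difference of intensity between organs for the 7 probe sets, with bars for the 95% interval from limma and filled points for an adjusted p under 0.05. Liver minus stomach is filled throughout, while liver minus pancreas lies near 0 for both cdo1.L probe sets (0.19 and -0.09).

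The level in pancreas was also taken as a percentage of that in liver within each isolation. It was 2.15% and 0.348% for hpd-like.2.L, 6.14% and 5.28% for fah.L, and 3.38% and 5.28% for hao1.L in isolations 1 and 2. For agxt.L it was 20.7% and 15.8%, for gldc.S 22.5% and 36.8%, and for cdo1.L 64.2% and 119% by its first probe set and 57.1% and 199% by its second. The 17 liver marker genes had a median of 3.23% in isolation 1 and 0.618% in isolation 2. The marker ahsg.L stood at 64.2% and 29.8%, and the other 16 at no more than 7.25% and 4.14%. The 64.2% of ahsg.L is a ratio of low values, 9.95 in pancreas and 15.5 in liver of isolation 1, against 107 and 360 in isolation 2. The pancreas percentages of agxt.L, gldc.S and cdo1.L were above those of these 16 markers in the same isolation, whereas fah.L and hao1.L lay within their range in isolation 1 and just above it in isolation 2, and hpd-like.2.L within it in both. The pancreas level in replicate 1 was 12.6 times that in replicate 2 for hpd-like.2.L, and 16 of the 17 liver markers were also higher in replicate 1. That ratio was 0.653 for hao1.L, 1.13 for gldc.S, 1.43 for fah.L, 1.85 for agxt.L and 2.47 and 1.14 for the first and second probe sets of cdo1.L. The source of the pancreas signal of these genes was not tested.

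**Figure D3:**
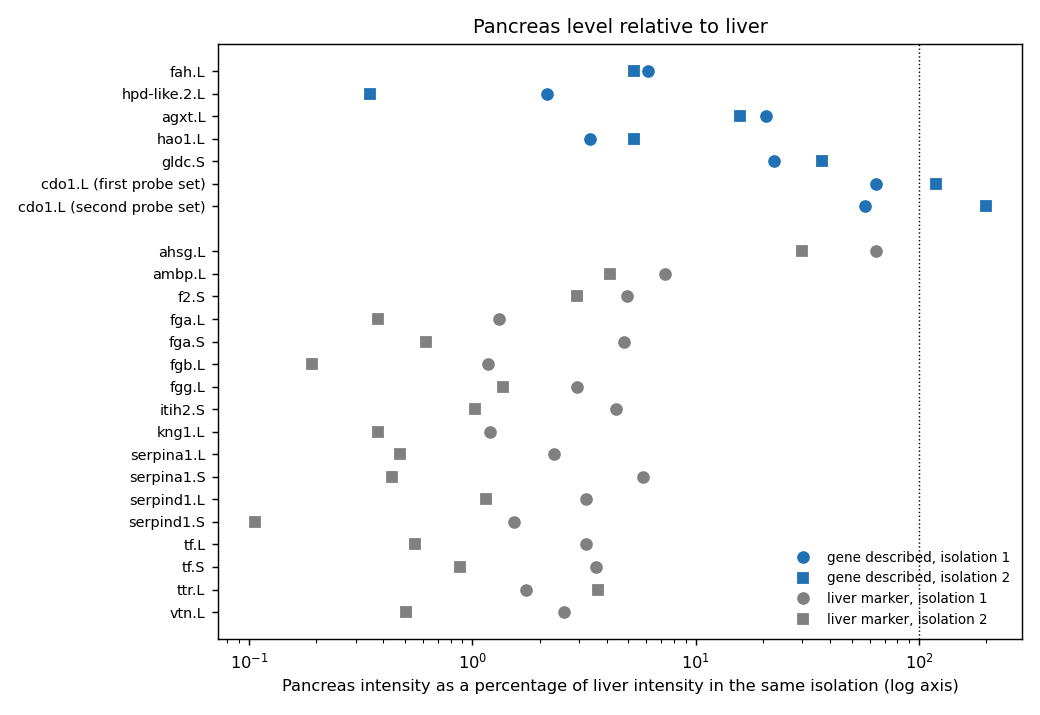
Pancreas intensity as a percentage of liver intensity in the same isolation (log axis) for the 7 probe sets (blue) and 17 liver marker genes (grey), with circles for isolation 1, squares for isolation 2 and a dotted line at 100%. Both points of agxt.L (15.8% and 20.7%), gldc.S and cdo1.L lie to the right of all liver markers but ahsg.L.

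The other measured genes of the same and neighbouring pathways, 58 in 8 lists, were less uniform. Members and lists were both chosen with earlier results of these data known, so this contrast is a description and not a test. In all, 7 of the 58 (12.1%, against 3.96% over all genes) were higher in liver than in pancreas and 4 lower (3.27% over all genes). Against stomach 15 (25.9%, beside 5.84% over all genes) were higher in liver and 2 lower (5.36% over all genes). The 7 higher in liver than in pancreas were higher in liver than in both (2.6% over all genes). The median log2 difference of the 58 was 0.02 for liver minus pancreas and 0.38 for liver minus stomach, beside -0.07 and 0.04 over all 7531 genes. Leaving out 1 array costs residual degrees of freedom for every gene, and the share of all genes that kept their call was not counted. The number of calls kept varied with the array left out. Of 11 between liver and pancreas (7.22% over all genes) 0 and 3 were kept without liver replicate 1 and 2, 2 and 0 without pancreas replicate 1 and 2, and 6 without either stomach array. Of 17 between liver and stomach (11.2% over all genes) 4 and 10 were kept without liver replicate 1 and 2, 13 without either pancreas array, and 3 and 4 without stomach replicate 1 and 2.

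In the tyrosine route qdpr.L, encoding the reductase that regenerates the cofactor of phenylalanine hydroxylase, had 5576 and 5397 in liver, 330 and 193 in pancreas and 416 and 210 in stomach. Liver was 21.8-fold above pancreas (limma adjusted p = 0.0107) and 18.5-fold above stomach (adjusted p = 0.00913). A second enzyme of that recycling, pcbd1.L, chosen after its values were seen, was 9.44-fold above stomach in liver (adjusted p = 0.00662) and 3.98-fold in pancreas (adjusted p = 0.0229), but missed the threshold between liver and pancreas (2.37-fold, adjusted p = 0.0672, and 0.0351 with the isolation as a block). The hpd gene itself, hpd.L, was at 1.55 and 4.4 in liver, 1.77 and 3.04 in pancreas and 7.76 and 19.3 in stomach, near the lowest intensities in liver and pancreas. It was called in no pair, and with the isolation as a block it was lower than stomach in liver (adjusted p = 0.0242) and pancreas (adjusted p = 0.0311). With 16 added, and no block, liver and pancreas were at 0.654 and 0.635 times stomach and were not called (limma adjusted p = 0.157 and 0.126).

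The partners of gldc in glycine cleavage did not all share its pattern. The carrier protein gene gcsh.L had 4678 and 3873 in liver, 1583 and 1754 in pancreas and 1425 and 1382 in stomach, and was 2.55-fold and 3.03-fold higher in liver than in pancreas and stomach (limma adjusted p = 0.028 and 0.0147). Of its 3 other probe sets, 1 was not called against pancreas. The aminomethyltransferase amt.L and the lipoamide dehydrogenase dld.S, named after their values were seen, were not called. For amt.L liver was at 3.42 times pancreas and 4.88 times stomach (adjusted p = 0.113 and 0.0538, and 0.0217 and 0.015 with the isolation as a block). For dld.S, which also serves other dehydrogenase complexes, the ratios were 0.763 and 0.685. With the isolation as a block shmt1.L and sdsl.S, also named after their values were seen, were higher in liver than in stomach (limma adjusted p = 0.0331 and 0.0414). Without the block they were not called (limma adjusted p = 0.0606 and 0.181). Of the 9 other glycine and serine genes 1 was lower in liver than in pancreas (3.27% over all genes). This was gcat.S, also named after its values were seen, which splits the product of threonine oxidation to glycine, at 307 and 222 in liver against 1206 and 1019 in pancreas (adjusted p = 0.0236).

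Around glyoxylate, hao2.S, a paralogue of hao1 that oxidises longer hydroxy acids in mammals, was 8.17-fold and 3.72-fold higher in liver than in pancreas and stomach (limma adjusted p = 0.0112 and 0.0237), with 1069 and 828 in liver, 139 and 95.7 in pancreas and 294 and 218 in stomach. Its other copy, hao2.L, was called in no pair and was at 1587 and 766 in liver, 1924 and 1908 in pancreas and 2639 and 1794 in stomach. For aldh4a1.L, named after its values were seen, liver was at 0.274 times pancreas by the brighter probe set, which was not called (limma adjusted p = 0.0696). The dimmer probe set of aldh4a1.L was called lower in liver, at 0.25 times pancreas (limma adjusted p = 0.0286). The mitochondrial hydroxyproline enzyme hoga1.L was named after its values were seen. It was at 436 and 269 in liver, 1499 and 487 in pancreas, and 55.4 and 48.7 in stomach. Liver was at 6.6 times stomach, which missed the threshold (limma adjusted p = 0.0512, and 0.0361 with the isolation as a block). Pancreas was 16.4-fold higher than stomach (adjusted p = 0.0255). Without pancreas replicate 1 or 2 that fold was 9.38 and 28.8, the call ending without replicate 1 (adjusted p = 0.0745) or either stomach array (adjusted p = 0.121 and 0.1).

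The .S copy of cdo1 followed the pancreas. The cdo1.S intensity was 52.7 and 45.9 in liver, 231 and 265 in pancreas, and 23.4 and 39.8 in stomach, 8.1-fold higher in pancreas than in stomach (limma adjusted p = 0.0138) and lower in liver than pancreas (log2 difference -2.33, SE 0.309, adjusted p = 0.0211). Between liver and stomach it was not called (adjusted p = 0.261). Whether the copies differ in their liver level relative to pancreas was not tested. Downstream of cdo1, sulfite oxidase suox.L had 579 and 441 in liver, 186 and 158 in pancreas and 42.4 and 28.9 in stomach, 2.95-fold higher in liver than in pancreas (adjusted p = 0.0455), 14.5-fold higher in liver than in stomach (adjusted p = 0.00574) and 4.91-fold higher in pancreas than in stomach (adjusted p = 0.0188). The 10 remaining cysteine and methionine genes were called in no pair, and neither were 6252 of all 7531 genes. With the isolation as a block 1 of these 10, the sulfide oxidising enzyme sqor.S, named after its values were seen, was lower than stomach in liver and in pancreas (adjusted p = 0.0361 and 0.0385).

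In the other lists the genes higher in liver than in both buds were qprt.L and gcdh.L, of the tryptophan and lysine routes, and glutamate dehydrogenase glud1.S. The qprt.L fold was 5.42 over pancreas and 11.6 over stomach (limma adjusted p = 0.0343 and 0.011), that of gcdh.L 3.61 and 2.2 (adjusted p = 0.0165 and 0.0411, the second 0.0582 with the isolation as a block) and that of glud1.S 4.42 and 4.47 (adjusted p = 0.0329 and 0.0239). Of the 10 genes of branched-chain amino acid breakdown 0 were higher in liver than in either bud, a count near the shares over all genes (3.96% and 5.84%), and 2 were lower than in stomach (5.36% over all genes). These were ivd.S (2.33-fold, adjusted p = 0.0217) and mccc2.S (2.58-fold, adjusted p = 0.0487), named, like hibadh.L and otc.S, after their values were seen. With the isolation as a block hibadh.L was also lower than stomach in liver (adjusted p = 0.0241, against 0.158 without it) and in pancreas (adjusted p = 0.0463). The pair with the highest mean there, aldh6a1.L and aldh6a1.S, were at 0.535 and 0.622 times pancreas and were not called. Of 11 urea cycle and ammonia genes, glud1.S and the carbamoyltransferase otc.S (3.08-fold over stomach, adjusted p = 0.0282, and 0.0504 with the isolation as a block) were the 2 called. Both were higher in liver than in stomach (5.84% over all genes). The other 9 were called in no pair, a count near the share over all genes (6252 of 7531). In histidine breakdown hal.2.S was at 1138 and 671 in liver, 6900 and 5249 in pancreas and 148 and 196 in stomach, lower in liver than pancreas (log2 difference -2.78, adjusted p = 0.0177). The other of the 2 highest there, ftcd.L, was not called between liver and pancreas (log2 difference -1.69, adjusted p = 0.0922) and was 6.01-fold higher in liver than in stomach (adjusted p = 0.0274). Of the 5 histidine genes 2 were lower in liver than in pancreas (3.27% over all genes). The second was amdhd1.L, named after its values were seen (log2 difference -1.38, limma adjusted p = 0.0367, and 0.0529 with the isolation as a block). In both liver and pancreas 4 of the 5 were higher than in stomach (1.45% over all genes).

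**Figure D4:**
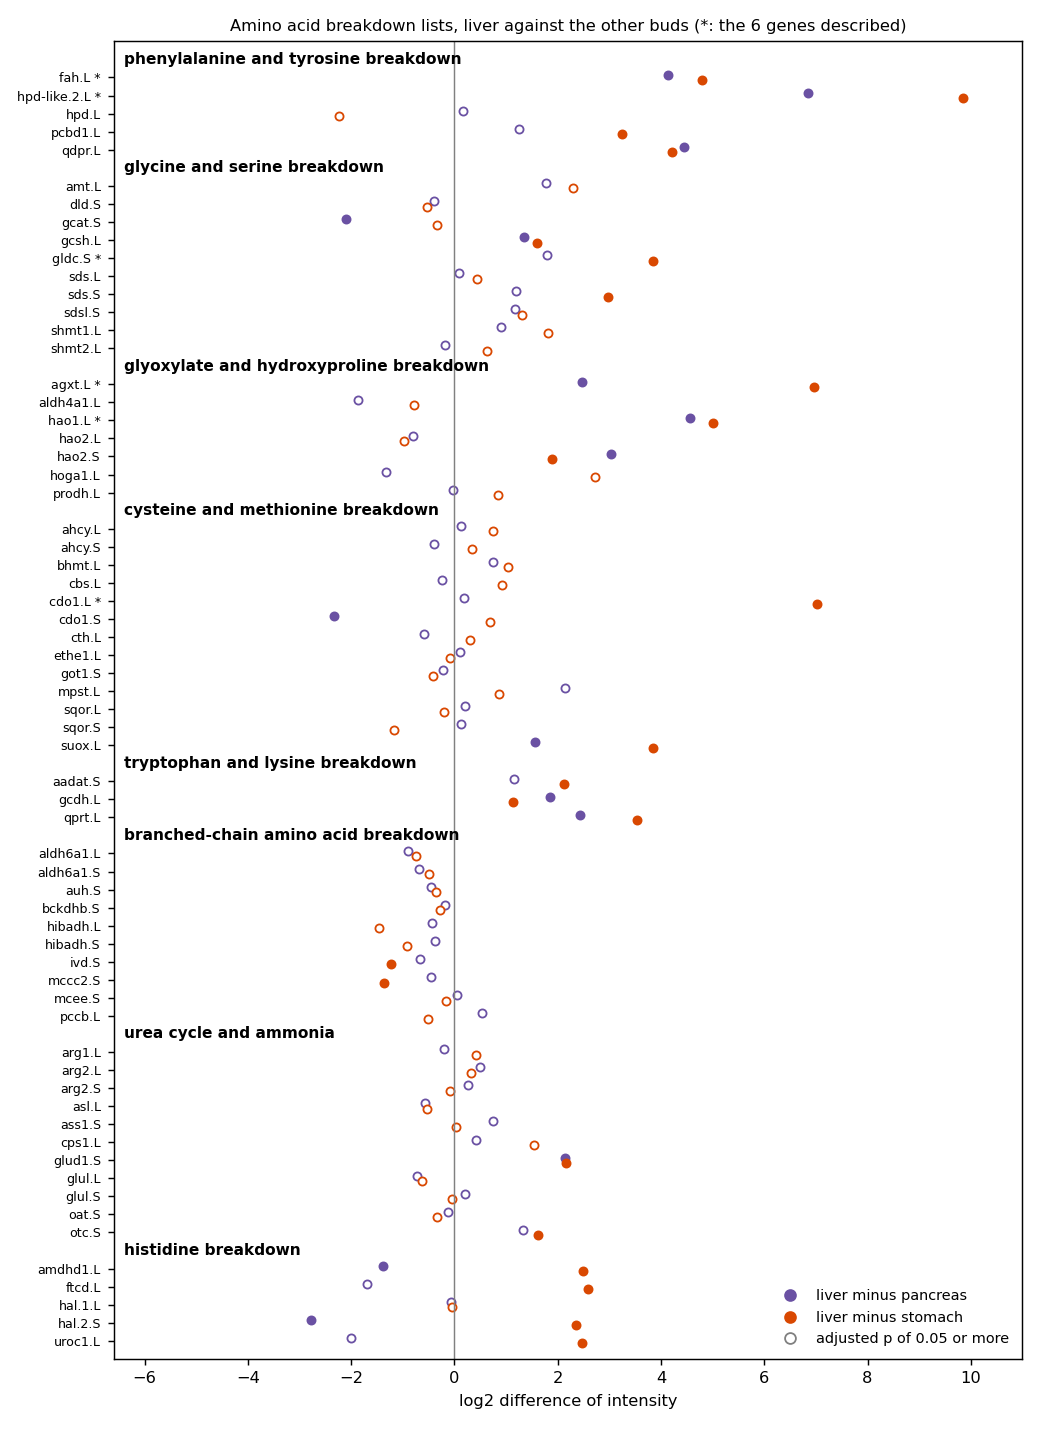
log2 difference of intensity, liver minus pancreas (purple) and liver minus stomach (orange), for the 6 genes described (starred) and the 58 other measured genes of 8 pathway lists, filled where the adjusted p is under 0.05. The starred genes fah.L, hpd-like.2.L, agxt.L and hao1.L are filled and to the right of 0 in both differences, and gldc.S and cdo1.L in liver minus stomach.

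Likeness of pattern was measured as the root mean square difference between log2 profiles over the 6 arrays, each profile minus its own mean, against 4770 genes with a mean intensity over 100. It describes these arrays and carries no test. For fah.L the nearest were the complement gene c9.L (0.216 log2 units), the nuclear receptor nr1h5.S (0.242) and the allantoicase gene allc.L (0.281). For hpd-like.2.L they were the fibrinogen genes fga.L (0.407) and fgb.L (0.48) and kininogen kng1.L (0.64), all of them liver plasma protein genes. For hao1.L they were the plasma protease inhibitor a2m.S (0.279), the aldehyde dehydrogenase aldh3a2.L (0.319) and igf3.L (0.33).

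For agxt.L the nearest were slurp1l.S (0.436), cyp1a1.L (0.46) and antithrombin serpinc1.L (0.678). The cyp1a1.L intensity was 849 and 808 in liver, 229 and 120 in pancreas, and 5.97 and 4 in stomach, descending in the same order as agxt.L. For gldc.S the nearest were suox.L (0.184), the aminobutyrate transaminase abat.L (0.281) and pcbd1.L (0.31). For cdo1.L no gene lay within 1 log2 unit, the nearest being g6pc1.3.L (1.02), of the glucose-6-phosphatase family, slurp1l.S (1.1) and cyp1a1.L (1.17). Among the 6 genes the closest pair was fah.L and hao1.L (0.554). The distances of cdo1.L were 1.2 from agxt.L, 2.08 from gldc.S and 2.62 to 2.84 from fah.L, hao1.L and hpd-like.2.L. Those of hpd-like.2.L ran from 2 (agxt.L) over 2.27 (fah.L) and 2.36 (hao1.L) to 2.83 (gldc.S) and 2.84 (cdo1.L).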

How the data were processed

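RNA of 3 organs was measured on 6 arrays. The deposited values are intensities on a linear scale, with a median of 100 on every array. Per the submitters' processing notes RMA was used, and per the series' design text Expressionist of GeneData, neither with a version. What else was done is not stated in the labels. The table held no detection calls. Of 15611 rows 120 controls were left out.

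Symbols came from the platform annotation, updated by gene identifier through a RefSeq table of Xenopus laevis v10.1 (9227 of 9304 found, 2 changed). A gene with several probe sets is represented by the one with the highest mean. The log2 intensities were fitted with organ means in limma 3.58.1 (R 4.3.3), which left 3 residual degrees of freedom. The fit was also run on simulated data with independent noise and no isolation effect. The check there was that planted differences were returned, which does not test the p-values. Tables were made with pandas 2.3.3 under Python 3.11.15.

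The members and gene lists were chosen with earlier results of these data known. By rule the text names the members, list genes called against both other organs, copies or paralogues of members, the 2 highest of a list with neither, and the 3 genes nearest each member. Other pathway genes in the text lie outside this rule. They were chosen after their values were seen and are marked so where named.

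Titles give the 3 organs of an isolation 1 shared number and experiment code. Deviations from the organ means correlated across probe sets at 0.152 to 0.197 between organs of 1 number. For probe sets with a mean over 100 this was 0.4 to 0.431. Same-numbered samples were therefore taken as paired, but the main fit held organ means only and did not use the pairing. Its p-values are those given unless the block is named, and the isolation as a block was 1 alternative. Others were an added 16, quantile normalization, a filter, an intensity trend, the study's own criterion and each array left out. The p-values rest on the spread between the 2 arrays of an organ, pooled over the 3 organs and drawn toward the spread of all probe sets.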

Additional observations from a re-analysis of the deposited data

How the results depend on the processing

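With 2 arrays per organ, leaving out any array costs residual degrees of freedom, and the lone array is assumed to vary like the others. Without 1 array the number of the 6 genes called was 0 to 3 between liver and pancreas (4 with all arrays), 4 to 6 between liver and stomach (6) and 0 to 3 between pancreas and stomach (3). Of 58 other pathway genes 0 to 6 were called between liver and pancreas (11 with all arrays) and 3 to 14 between liver and stomach (17). Between liver and pancreas 18 of them were called with 16 added (11 higher and 7 lower in liver). With dim probe sets left out 18 of the 48 tested were called (10 and 8), and with an intensity trend 18 of the 58 (11 and 7). The shares of all genes called under these settings or without 1 array were not counted, so these counts are no result about the pathway genes. Of 126 differences of the 7 probe sets without 1 array, 84 kept side and direction, 37 lost their call, 1 gained one and 4 turned sign. The turned ones were the uncalled liver minus pancreas values of cdo1.L, which ran from -0.9 to 1.29 for its first probe set and from -1.09 to 0.91 for its second. The 126 also hold differences that were not called with all arrays and so had no call to lose. Under the other alternatives 118 of 126 kept side and direction. The replicate block ended the call of agxt.L over pancreas (adjusted p = 0.061) and changed the members called between liver and pancreas to include gldc.S, 4 in all, of which 3 were among the 4 without it; between the other organs it changed no member's call. From the ratio of mean intensities, as the study took it, the second cdo1.L probe set was 0.23 for liver minus pancreas, against -0.09. Besides the block, gldc.S was called over pancreas with 16 added, without dim probe sets and with the trend (limma adjusted p = 0.0159, 0.0124 and 0.0103). The study's own criterion, an unadjusted test across the 3 organs with a 3-fold ratio of means, also selected gldc.S for liver over pancreas and hpd-like.2.L for pancreas over stomach. Quantile normalization changed no member's call, nor did taking the second cdo1.L probe set, an alternative chosen after seeing the data. Signal over background limits the low values: 11.9% to 13.7% of an array's probe sets were under 16, and the table gives no detection calls.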
